A study of Mus musculus with 25 samples.

Results

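The first day of calorie restriction (CR) was examined in the lungs of C57BL/6 mice, a common inbred strain, by setting the 2 arrays of CR 24 h against the 4 arrays of fed 0 h. CR 24 h stands for lungs taken 24 h after food was cut by 2/3. Fed 0 h stands for lungs of mice that were always fed. By the labelled hours both groups were taken at the same time of day. The descriptions of the fed mice mention the 2/3 restriction as well, which leaves a doubt about their feeding, and they were read as unrestricted controls. The age and sex of the mice and the number of animals behind an array are not given in the sources used here. The 6 arrays are those of 25 whose titles name CR at 24 h or the control at 0 h, and every probe set that is not a control entered. The whole series follows lung gene expression over 96 h of CR, per the labels with a loss of alveoli, the air sacs where gas is exchanged, in view. RNA was hybridized to Affymetrix MG-U74Av2 arrays, which carry 12422 probe sets besides controls, and 7440 of them passed a filter on dim signal and were tested.

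When food is withheld, the adrenal cortex releases more glucocorticoid hormone, in mice mainly corticosterone. The hormone binds the glucocorticoid receptor, a transcription factor present in nearly all cells, which moves to the nucleus and induces genes such as Fkbp5, Per1 and Zbtb16. Falling insulin and rising fatty acids shift tissues from glucose to fat as fuel, through the PPAR receptors and the FOXO factors. The hormone also follows the daily clock, in which CLOCK and ARNTL switch on the Per and Cry genes, whose products then switch CLOCK and ARNTL off.

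Each array is named by a number and a letter. CR 24 h has arrays 1a and 1b, and fed 0 h has 1a, 1b, 2a and 2b. Nothing in the labels says if a and b came from separate mice or from 1 RNA sample hybridized again, and the p-values may then reflect technical spread alone. The 2 fed numbers stood apart: their arrays correlated at 0.854 to 0.871 across probe sets, against 0.956 within number 1 and 0.959 within number 2, and 2969 of 7440 probe sets differed between them. Of these, 1486 were higher in number 1 and 1483 lower. CR 24 h correlated at 0.852 to 0.873 with number 1 and at 0.923 to 0.951 with number 2, although its highest signal lay in the range of number 1. Named genes that rose or fell against all 4 fed arrays but did not pass against number 2 alone are pointed out below. The small number of arrays limits the precision throughout. Lung markers were bright on all 6 arrays, except Sftpd of type II cells (82.7 to 226.7) and Pecam1 of endothelium (119.3 to 348.6), which were dim. Sftpc, a surfactant gene and marker of type II cells, had a signal of 90893 and 75148 at CR 24 h, against 97698, 88378, 42569 and 51195 at fed 0 h. Sftpb, another surfactant gene, had 20970 and 27168 at CR 24 h. At fed 0 h it was lower on number 1 (12361 and 19699) than on number 2 (22075 and 26131). Atrial and heart muscle genes such as Myl7 were present too (6342 and 5442 at CR 24 h, 10733, 10488, 9463 and 7411 at fed 0 h). Myh6 of heart muscle had 2611 and 2351 at CR 24 h, above number 1 (590 and 484) and within number 2 (2835 and 1904). Apoa1 of liver and Acta1 of skeletal muscle were at the floor on all 6 arrays. Other markers of these tissues were not. Ttr of liver was at the floor at CR 24 h, against 310, 80.4, 231.5 and 164.9 at fed 0 h. Alb of liver reached 186.7 on fed 0 h 2a, and Ckm of skeletal muscle 280.6 on fed 0 h 1a. The 3'/5' ratio of Gapdh signals, a sign of RNA quality, was 1.49 and 1.31 at CR 24 h and 1.76 to 2.02 at fed 0 h, and that of actin was 2.77 and 1.80 at CR 24 h and 1.87 to 2.31 at fed 0 h. The part of RNA quality in the results below was not tested. The tissue was taken in bulk, so fewer cells of a type and less RNA per cell cannot be told apart.

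At CR 24 h 149 of 7440 probe sets rose (2.00%) and 61 fell (0.820%) relative to fed 0 h (limma, Benjamini-Hochberg adjusted p under 0.05), and 1540 had an unadjusted p under 0.05. The rises stood for 125 named genes and the falls for 51. The median size was 1.04 on the log2 scale among rises and 1.07 among falls, and 77 rises and 35 falls reached 2-fold. All 149 and all 61 had both CR arrays beyond all 4 fed arrays, which held for 11.7% of all tested probe sets upward and for 10% downward. The calls were made on these same arrays, so this separation is no further evidence. Against fed number 1 alone 1464 rose (19.7%) and 1431 fell (19.2%), and against number 2 alone 185 rose (2.49%) and 104 fell (1.40%). Of the 149 rises 101 passed against each number, and of the 61 falls 30 did, beside 1.40% and 0.417% of all tested probe sets. Against the fed mice taken at 2, 4 and 12 h, at other times of day, 30 of the rises and 11 of the falls passed, beside 0.618% and 0.538%. The same 2 CR arrays entered each of these comparisons, so their counts are no independent check. The test took its estimate of the spread from 24 arrays in 11 groups. With only these 6 arrays in the fit 1 probe set passed, Snrp1c-ps2, and with a and b averaged to 1 sample 2 passed, Zbtb16 and Map3k6. Without array CR 24 h 1a 37 probe sets passed, without CR 24 h 1b 77, 137 without fed 0 h 1b, 744 without fed 0 h 2a and 606 when fed 0 h 2b was left out.

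Genes that glucocorticoids are known to induce were among the largest rises. Of 28 measured genes of this list 14 rose and none fell, 50% against 2.00% rising among all probe sets tested, and the list's median log2 change was 0.63 against -0.01 over all probe sets. The list was written with earlier results of these data known, so its count is no independent evidence. Against fed number 1 19 of the 28 rose and 1 fell (median log2 change 0.72), beside 19.7% and 19.2% of all probe sets. Against number 2 14 rose and 1 fell (0.69), beside 2.49% and 1.40%. Against the fed mice of 2, 4 and 12 h 9 rose and none fell (0.59), beside 0.618% and 0.538%. For every list below, the counts against all 4 fed 0 h arrays stand beside 2.00% rising and 0.820% falling among all probe sets.

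Zbtb16, a zinc-finger transcription factor also called PLZF, showed the largest rise of a probe set with 1 gene symbol. The gene lies on chromosome 9. Its signal was 6237 and 7268 on the CR 24 h arrays, against 250.4 and 443 on fed number 1 and 1107 and 1422 on fed number 2. Both CR arrays lay far above every fed array, and number 2 lay above number 1. The rise was 10.4-fold (95% confidence interval 5.41 to 20, adjusted p = 0.000407). Its log2 change was 4.34 against number 1 and 2.42 against number 2. At fed 2, 4 and 12 h the gene averaged 2291 ± 298 (SD, 6 arrays), and against these arrays the log2 difference was 1.57 (adjusted p = 0.0835). The probe set carries the maker's suffix g, for sequence shared with another probe set.

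Fkbp5 encodes a co-chaperone that lowers the hormone affinity of the glucocorticoid receptor. It had 1641 and 1949.7 signal units at CR 24 h, against 279 and 221 on fed number 1 and 358 and 487 on number 2. The CR arrays lay above all fed 0 h arrays, and the rise of this gene on chromosome 17 was 5.56-fold (3.95 to 7.82, adjusted p = 1.14e-05). Fed mice at 2, 4 and 12 h averaged 979, 853 and 1529.9, and the log2 difference of CR 24 h from them was 0.72 (adjusted p = 0.141). Within the fed mice the gene was higher at 12 h than at 0 h by 2.25 on the log2 scale (adjusted p = 5.12e-05).

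Map3k6, which acts in the MAP kinase cascade and lies on chromosome 4, stood at 1479.9 and 1302 at CR 24 h, against 106, 263, 112 and 342 at fed 0 h. It rose 7.68-fold (4.55 to 13, adjusted p = 0.000184), with like log2 changes against number 1 (3.06) and number 2 (2.83), and by 1.52 against the fed mice of 2, 4 and 12 h (adjusted p = 0.0306). Per1, a repressor of the clock that glucocorticoids also induce, had 961 and 873 at CR 24 h, against 220.3, 306, 416 and 404 at fed 0 h, a 2.81-fold rise (1.9 to 4.15, adjusted p = 0.00515). Its CR arrays lay above the highest fed 0 h array, but fed mice at 12 h averaged 929, and the log2 difference from fed 2, 4 and 12 h was 0.58 (adjusted p = 0.321). Ddit4, an inhibitor of the growth kinase complex mTORC1, had 2419 and 2109.5 at CR 24 h, against 1224, 909, 845 and 932 at fed 0 h. It rose 2.34-fold (1.84 to 2.97, adjusted p = 0.000407) and passed against the fed mice of 2, 4 and 12 h with a log2 change of 1.30.

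Several further members that rose encode negative regulators of signalling. Nfkbia, the inhibitor that holds NF-kappaB in the cytoplasm, rose 2.2-fold (adjusted p = 0.000488), with 7923 and 6090.2 at CR 24 h and 2989, 2820.4, 3202 and 3665 at fed 0 h. Errfi1, an inhibitor of EGF receptors, rose 1.93-fold (adjusted p = 0.00121), Cdkn1a, the cell-cycle inhibitor p21, 2.75-fold (adjusted p = 0.000828), and Dusp1, a phosphatase of MAP kinases, 1.44-fold (adjusted p = 0.031). The transcription factor Cebpd rose 1.7-fold (adjusted p = 0.0155), the sulfotransferase Sult1a1 2.96-fold (adjusted p = 0.00734) and Lcn2, the iron-siderophore binding protein lipocalin 2, 2.13-fold (adjusted p = 0.0433). A second Lcn2 probe set had a log2 change of -0.24 (adjusted p = 0.458). Sult1a1 had 968 and 991 at CR 24 h, against 561 and 429 on fed number 1 and 199.8 and 250.2 on number 2, above both numbers. The metallothioneins Mt1 (log2 change 0.59, adjusted p = 0.0829) and Mt2 (0.50, adjusted p = 0.066), the kinase Sgk1 (0.15, adjusted p = 0.701) and Anxa1, which encodes the anti-inflammatory annexin A1 (-0.01, adjusted p = 0.98), did not pass. Hsd11b1, whose enzyme regenerates active corticosterone, had 3302 and 2646 at CR 24 h, against 8955 and 7993 on fed number 1 and 1759.7 and 2606 on number 2. Its log2 change was thus -1.52 against number 1 and 0.47 against number 2, and -0.53 against both (adjusted p = 0.494). Klf9 was read by 2 probe sets that disagreed: the one named among the large rises rose 3.46-fold (adjusted p = 0.00255) and the brighter one had a log2 change of 0.66 (adjusted p = 0.223). Zbtb16, Map3k6, Fkbp5, Ddit4, Cdkn1a, Nfkbia and Errfi1 passed with any 1 of the 6 arrays left out. Cebpd, Sult1a1, Dusp1 and Lcn2 did not pass when CR 24 h 1a or CR 24 h 1b was left out. Per1 and Klf9 did not pass when CR 24 h 1a was left out.

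**Figure D1:**
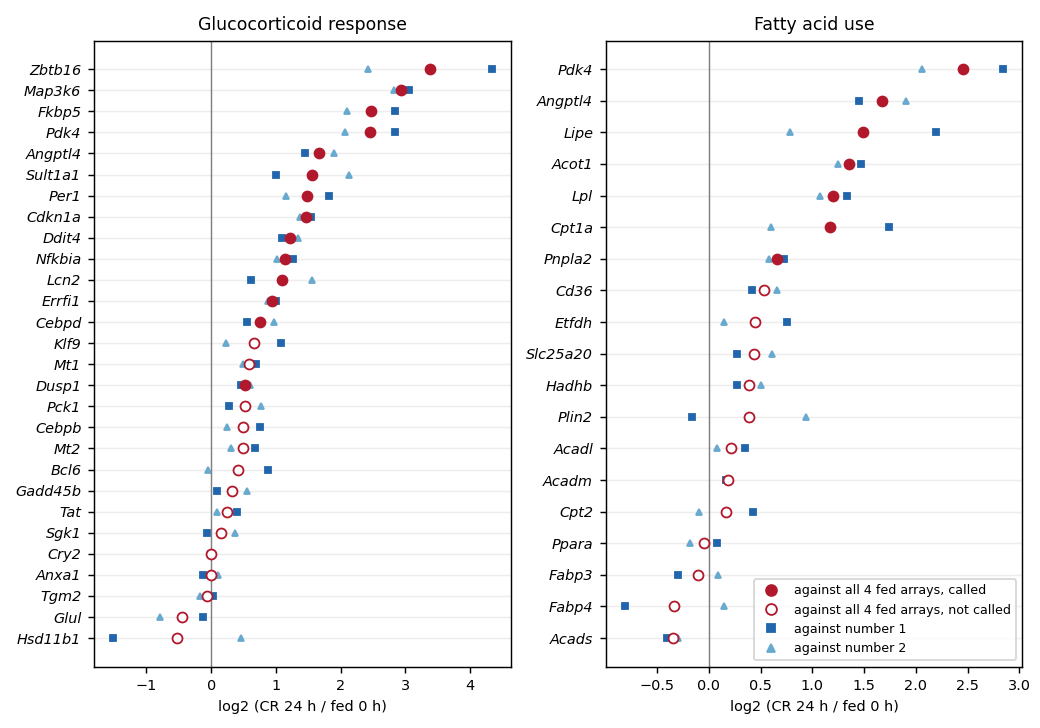
log2 change at CR 24 h relative to fed 0 h for each measured gene of the glucocorticoid response list (left, 28 genes) and of the fatty acid use list (right, 19 genes). Circles show the change against all 4 fed arrays, filled where it passed the test (14 and 7 genes); squares and triangles show it against fed number 1 and number 2, which spread widely for genes such as Zbtb16, Lipe and Hsd11b1.

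The promoters shown, of Fkbp5 and Per1, were picked because each holds an E-box. Glucocorticoids are known to induce both genes, and both rose. The sequences run from 250 bases before to 50 bases after the transcription start and are from RefSeq, build GRCm38.p6. Capitals mark the E-box CACGTG, the site that CLOCK and ARNTL are known to bind. The Fkbp5 window is chr17:28486100-28486399 on the minus strand, with the E-box 169 bases before the start. The Per1 window is that of its upstream start, chr11:69098699-69098998 on the plus strand, with the E-box 166 bases before the start. The window of the other Per1 start, chr11:69099902-69100201, held no E-box.
Fkbp5: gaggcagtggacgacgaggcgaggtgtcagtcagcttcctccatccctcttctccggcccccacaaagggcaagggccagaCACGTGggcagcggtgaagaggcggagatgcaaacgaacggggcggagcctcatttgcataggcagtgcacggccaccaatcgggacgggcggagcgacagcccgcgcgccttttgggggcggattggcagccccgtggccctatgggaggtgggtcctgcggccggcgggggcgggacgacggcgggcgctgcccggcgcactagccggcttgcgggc
Per1: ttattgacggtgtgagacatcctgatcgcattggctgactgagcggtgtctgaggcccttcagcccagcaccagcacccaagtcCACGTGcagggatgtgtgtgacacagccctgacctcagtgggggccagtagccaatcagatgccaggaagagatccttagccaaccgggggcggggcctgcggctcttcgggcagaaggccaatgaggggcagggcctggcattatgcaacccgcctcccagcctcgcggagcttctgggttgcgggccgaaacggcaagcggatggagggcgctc
Both strands were searched. Of the 12 genes with the largest rises 8 had a promoter in the table, and 2 held the E-box, Fkbp5 and Thrap3, against 7.15% of all 32851 promoters. TGTTCT, one arm of the glucocorticoid response element, was found in 0 of these 8, against 19.0% of all promoters. Such a match is a description of these 300 bases, and its absence says nothing of the receptor, which often binds far from a start. Among the 29 promoters of the clock genes described below 5 held the E-box and 3 held TGTTCT.

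Of 19 measured genes that serve the use of fat as fuel 7 rose (36.8%, beside 2.00% of all probe sets tested), none fell, and 12 were not called. Their median log2 change was 0.44. Against fed number 1 and against number 2 9 of them rose, and against the fed mice of 2, 4 and 12 h 3 did, beside 19.7%, 2.49% and 0.618% of all probe sets. Pdk4 and Angptl4 are also among the 14 rises of the glucocorticoid list, so the lists are not separate. Pdk4, whose kinase switches pyruvate dehydrogenase off and so spares glucose, lies on chromosome 6 and had 1423 and 1633 at CR 24 h, against 178, 252, 352 and 379 at fed 0 h. The rise was 5.48-fold (3.83 to 7.83, adjusted p = 1.74e-05), and the fed mice of 2, 4 and 12 h, at 359 ± 66.1, lay near fed 0 h, and the log2 difference from them was 2.10 (adjusted p = 0.000111). Angptl4, a secreted inhibitor of lipoprotein lipase, had 1694 and 1683 at CR 24 h, against 588, 653, 440 and 463 at fed 0 h, a 3.19-fold rise (2.46 to 4.15, adjusted p = 4.1e-05). A second Angptl4 probe set rose by 0.83 on the log2 scale (adjusted p = 0.0485), while another, dim one had a log2 change of -1.27 (adjusted p = 0.231).

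Lipases and enzymes of fatty acid handling rose as well. Lpl, lipoprotein lipase itself, stood at 2545 and 2828 at CR 24 h, against 969.9, 1171, 1188 and 1369 at fed 0 h (2.3-fold, adjusted p = 0.000407). Acot1, an acyl-CoA thioesterase and PPAR-alpha target, had 2736 and 2385 at CR 24 h, against 1088, 787, 1005 and 1154 at fed 0 h (2.56-fold, adjusted p = 0.000236). For both genes the CR arrays lay above every fed 0 h array. Pnpla2 and Lipe, the lipases that act in turn on stored triglyceride, rose 1.57-fold (adjusted p = 0.0249) and 2.8-fold (adjusted p = 0.0386), and Cpt1a, which carries fatty acids into mitochondria, 2.25-fold (adjusted p = 0.0243). Cpt1a had 6809 and 7298 at CR 24 h, against 2335 and 1913 on fed number 1 and 4527 and 4804 on number 2, with a log2 change of 1.74 against number 1 and 0.60 against number 2. Pdk4, Angptl4, Lpl and Acot1 passed with any 1 of the 6 arrays left out. Pnpla2 and Lipe did not pass when CR 24 h 1a, CR 24 h 1b, fed 0 h 1a or fed 0 h 1b was left out. Cpt1a did not pass when CR 24 h 1a, CR 24 h 1b or fed 0 h 1a was left out. Lipe had 1425 and 1489 at CR 24 h, against 236 and 429.9 on fed number 1 (log2 change 2.19) and 835 and 858 on number 2, and it did not pass against number 2 (log2 change 0.78, adjusted p = 0.127). The enzymes of beta-oxidation themselves, Acadm (0.18), Acadl (0.21), Hadhb (0.39) and Acads (-0.35), had log2 changes that did not pass.

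Of 14 genes of fat synthesis and fat cells 1 fell and none rose, beside 0.820% falling among all probe sets. This was Scd1, the stearoyl-CoA desaturase, which had 16382 and 15922 at CR 24 h, against 28786, 20973, 24607 and 27884 at fed 0 h, 1.57-fold lower (adjusted p = 0.0215). Its second probe set fell by 1.45 on the log2 scale (adjusted p = 0.0047). Fasn (-0.17), Srebf1 (-0.01) and Acly (-0.44) did not pass. Scd1 did not pass when CR 24 h 1a or CR 24 h 1b was left out. Adipoq of fat cells had 739 and 654 at CR 24 h, against 2077 and 2150.5 on fed number 1 and 994 and 1036 on number 2 (log2 change -1.08, adjusted p = 0.0648). None of 12 genes of cholesterol synthesis passed in limma (median log2 change -0.36; 3 at an unadjusted p under 0.05), and against fed number 1 8 fell while against number 2 none did, beside 19.2% and 1.40% of all probe sets. Those with the smallest p were Hmgcs1 and Mvk of the mevalonate pathway (log2 changes -0.66 and -0.51) and Sc5d, a desaturase of sterol synthesis (-1.12), and at CR 24 h they lay below all fed 0 h arrays without passing.

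Of 18 genes of FOXO signalling and growth arrest 4 rose (22.2%, beside 2.00% of all probe sets) and none fell, with a median log2 change of 0.12. Besides Ddit4 and Cdkn1a these were Foxo3, a FOXO factor active when insulin is low, and Txnip, which blocks glucose uptake. Foxo3 had 3891 and 3495 at CR 24 h, against 1022 and 885 on fed number 1 and 2164 and 2316 on number 2 (2.53-fold, adjusted p = 0.0205). Its CR arrays lay above both numbers, with a log2 change of 1.95 against number 1 and 0.72 against number 2. Txnip had 8389 and 7819.7 at CR 24 h, against 5272, 5095, 4723 and 5345 at fed 0 h (1.59-fold, adjusted p = 0.00649), although a dim second probe set had a log2 change of -0.65 (adjusted p = 0.247). None of 14 genes of IGF and growth signalling passed, at a median log2 change of 0.23 (2 at an unadjusted p under 0.05). Of 15 genes of amino acid stress 1 rose and 1 fell (6.67% each, beside 2.00% and 0.820% of all probe sets). Herpud1 rose (1.45-fold, adjusted p = 0.0456) and Atf3 fell (2.11-fold lower, adjusted p = 0.0471). Of 20 genes of apoptosis 1 rose (5%, beside 2.00% of all probe sets). It was Bcl2l1, which encodes the survival protein BCL-XL (1.84-fold, adjusted p = 0.00859). Bcl2l1 rose against the fed mice of 2, 4 and 12 h as well (log2 change 0.87, adjusted p = 0.00797). Foxo3 and Bcl2l1 did not pass when CR 24 h 1a or CR 24 h 1b was left out. Txnip did not pass when CR 24 h 1a was left out. Herpud1 did not pass when CR 24 h 1a, CR 24 h 1b or fed 0 h 1b was left out. Atf3 did not pass when CR 24 h 1a, CR 24 h 1b, fed 0 h 1a or fed 0 h 1b was left out. Atf3 did not pass against number 2 alone (log2 change -0.92, adjusted p = 0.112).

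At the same labelled time of day, Per1 was the 1 gene of 13 core clock genes that rose, and none fell (median log2 change 0.28). Of 9 clock output genes none passed (0.30; 2 at an unadjusted p under 0.05). Cry1 had 1397 and 1667 at CR 24 h, against 1177, 1155, 879 and 955 at fed 0 h (log2 change 0.56, adjusted p = 0.106), and Arntl had 861 and 863 at CR 24 h, against 567, 544, 668 and 662 at fed 0 h (0.50, adjusted p = 0.184). In both genes the CR arrays lay above all fed arrays. Clock itself had a log2 change of 0.31 (adjusted p = 0.341). Per2 was dim, with 109 and 209 at CR 24 h, against 80.4, 80.4, 163 and 96.3 at fed 0 h, and Cry2 had a log2 change of 0.00.

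Several clock genes differed between the fed numbers. Nr1d1, which encodes REV-ERB alpha, had 976 and 961 at CR 24 h, against 641 and 632 on fed number 1 and 1263 and 1448 on number 2, so that CR lay between them. Dbp, a clock output factor, was at the floor of 80.4 on both CR 24 h arrays, against 109, 168, 199 and 179 at fed 0 h. Its log2 change was -0.99 (adjusted p = 0.109), a value that the floor limits, and it did not pass. Fed mice at 2, 4 and 12 h averaged 301, 911 and 331. Cirbp, an RNA-binding protein that cold induces, had 3774 and 2823 at CR 24 h, against 2444, 2479, 2006 and 2017 at fed 0 h (0.55, adjusted p = 0.0572), above all fed arrays but not called. Nr1d2, with a log2 change of -0.49, and Per3, with -0.47, lay below all fed 0 h arrays without passing. Usp2, a deubiquitinase, had 647 and 802 at CR 24 h, against 275 and 94.8 on number 1 and 859 and 899 on number 2. Like Usp2, Wee1, Tef and Alas1 lay above both arrays of number 1 at CR 24 h and overlapped with the fed 0 h arrays as a whole. The kinases Csnk1d (0.43) and Csnk1e (0.13), the nuclear receptor Rora (0.28), the repressors Bhlhe40 (-0.40) and Nfil3 (-0.41), and Tspan4 (-0.35) had log2 changes that did not pass and arrays that overlapped. Noct, a circadian phosphatase, lay below all fed 0 h arrays on its brightest probe set (-0.46, adjusted p = 0.32) without passing.

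**Figure D2:**
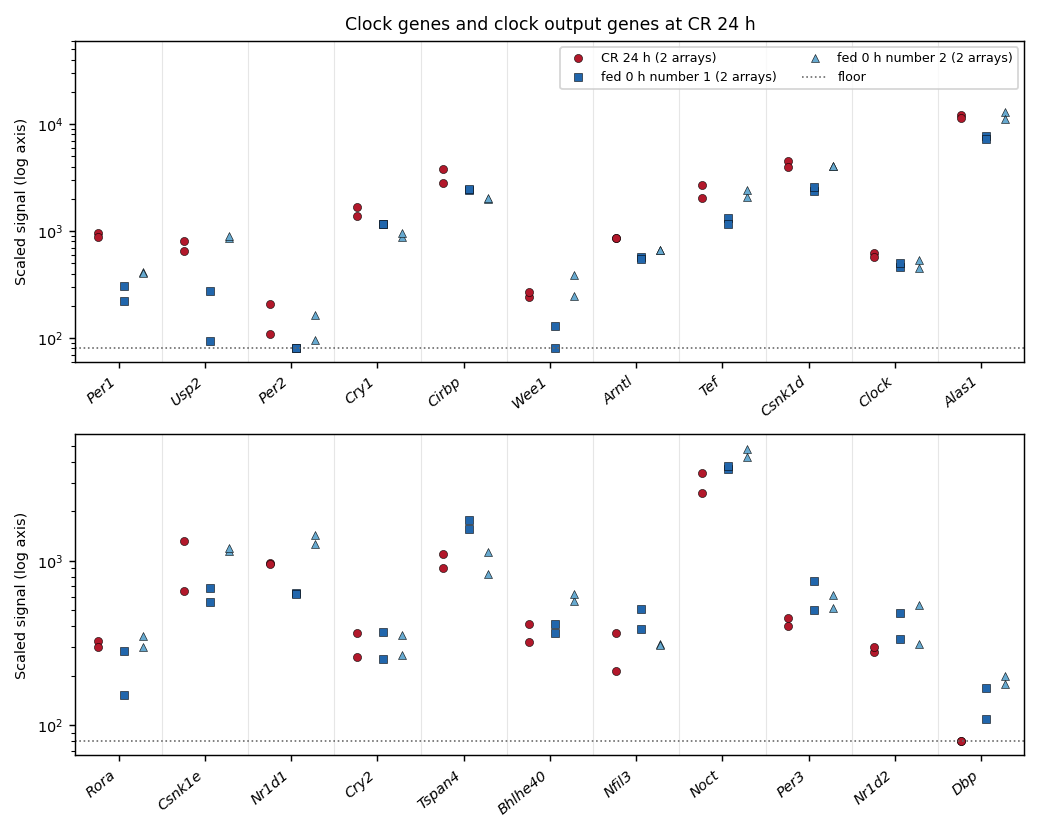
Scaled signal (log axis) of the 22 clock and clock output genes on each array, CR 24 h as circles, fed 0 h number 1 as squares and number 2 as triangles, ordered by log2 change; the dotted line is the floor. Per1 is the gene that passed the test, with CR arrays at 961 and 873, while in genes such as Usp2 and Nr1d1 the fed numbers lie apart.

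Of 27 endothelial genes 7 rose (25.9%, beside 2.00% of all probe sets) and none fell, with a median log2 change of 0.78. Their summed signal was 139300 to 144900 at CR 24 h, against 81890 to 83460 on fed number 1 and 90010 to 115100 on number 2. The median was 1.07 against fed number 1 (17 rose, beside 19.7% of all probe sets, and 1 fell) and 0.48 against number 2 (7 rose, beside 2.49%, and none fell). The 7 that rose against number 2 were Lyve1, Thbd, Sox18 and Ramp2 of those described here, and Icam2, Calcrl and Car4, which did not pass against all 4 fed arrays. Against the fed mice of 2, 4 and 12 h it was 0.36 and none passed in either direction. Lyve1, a hyaluronan receptor of lymphatic endothelium, had 1899 and 2783 at CR 24 h, against 888, 862, 764 and 1166 at fed 0 h, a 2.53-fold rise (1.93 to 3.32, adjusted p = 0.00056). Both CR arrays were above all fed 0 h arrays, but the fed mice of 2, 4 and 12 h averaged 1844 ± 299 (log2 difference 0.33, adjusted p = 0.428).

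Thbd, the anticoagulant receptor thrombomodulin, had 3702 and 4504 at CR 24 h, against 2185, 1928, 1635 and 2702 at fed 0 h (1.97-fold, adjusted p = 0.00402), and a second probe set of it had a log2 change of -0.13 (adjusted p = 0.703). Sox18, a transcription factor of vessel development, rose 1.8-fold (adjusted p = 0.00534) and its second probe set by 0.83 on the log2 scale (adjusted p = 0.0165). Tie1, an angiopoietin co-receptor, rose 2.29-fold (adjusted p = 0.0171), Ace, the angiotensin-converting enzyme, 2.37-fold (adjusted p = 0.018), Klf2, a flow-responsive factor, 2.36-fold (adjusted p = 0.0313) and Ramp2, a partner of the adrenomedullin receptor, 1.71-fold (adjusted p = 0.0295). A second Ace probe set had a log2 change of 0.42 (adjusted p = 0.467) and did not pass. Against number 1 the log2 changes of Ace, Tie1 and Klf2 were 1.67, 1.56 and 1.47. Against number 2 alone Ace (log2 change 0.82, adjusted p = 0.0542), Tie1 (log2 change 0.83, adjusted p = 0.0527) and Klf2 (log2 change 1.01, adjusted p = 0.0884) did not pass. Lyve1 passed with any 1 of the 6 arrays left out. Thbd and Tie1 did not pass when CR 24 h 1b was left out. Sox18 did not pass when CR 24 h 1a was left out. Ace, Klf2 and Ramp2 did not pass when CR 24 h 1a or CR 24 h 1b was left out. Vwf, Flt1, Eng and Kdr did not pass. Vwf, the von Willebrand factor, had 8700 and 9502 at CR 24 h, against 2145 and 2309 on number 1 and 6374 and 6976 on number 2. Pecam1, a marker of endothelium in general, was dim (341 and 326 at CR 24 h, 349, 259, 287 and 119 at fed 0 h), and Cdh5 was at 11304 and 11073 at CR 24 h, against 3927, 5391, 9832 and 12758 at fed 0 h, within the fed range.

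Of 16 genes of elastic fibres 2 rose (12.5%, beside 2.00% of all probe sets) and none fell. Lox, lysyl oxidase, which crosslinks elastin and collagen, had 1039 and 919 at CR 24 h, against 295, 345, 260.1 and 432 at fed 0 h, a 2.99-fold rise (2.09 to 4.28, adjusted p = 0.0014). A second, dimmer Lox probe set had a log2 change of 0.96 (adjusted p = 0.299). Mfap2, a microfibril protein, had 3101 and 3098 at CR 24 h, against 1757, 1887, 1438 and 1726 at fed 0 h (1.83-fold, adjusted p = 0.00402). For both genes these CR arrays lay above every fed 0 h array and the change passed against number 1 and against number 2. Lox and Mfap2 did not pass when CR 24 h 1a was left out. Eln, elastin itself, had 8761 and 9553 at CR 24 h, against 5911, 5081, 8544 and 8119 at fed 0 h (0.44, adjusted p = 0.212), and did not pass.

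Of 19 collagen and basement membrane genes 1 fell and none rose (median log2 change 0.08), while against fed number 1 11 rose and 1 fell and against number 2 3 fell, beside 19.7%, 19.2% and 1.40% of all probe sets. Serpinh1, which encodes the collagen chaperone HSP47, had 3796 and 2546 at CR 24 h, against 6445, 6178, 5079 and 5628 at fed 0 h, and was 1.87-fold lower (1.44 to 2.42, adjusted p = 0.0108). It was also lower than in the fed mice of 2, 4 and 12 h (log2 change -0.91, adjusted p = 0.00797). Col1a1 had 2589 and 4353 at CR 24 h, against 1302 and 1640.3 on number 1 and 4208 and 4434 on number 2, so that its log2 change had opposite signs against the numbers (1.20 and -0.36). Of 18 proteases and inhibitors the inhibitor Timp3 rose (1.68-fold, adjusted p = 0.0305) and the inhibitor Timp1 fell (2.22-fold lower, adjusted p = 0.0161). Timp1 had 904 and 1239 at CR 24 h, against 2872, 1956, 2979 and 1811 at fed 0 h. Serpinh1 did not pass when CR 24 h 1b was left out. Timp3 did not pass when CR 24 h 1a, CR 24 h 1b, fed 0 h 1a or fed 0 h 1b was left out. Timp1 did not pass when CR 24 h 1a was left out. Timp3 did not pass against number 2 alone (log2 change 0.48, adjusted p = 0.0862).

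None of 20 genes of alveologenesis passed (limma; median log2 change 0.37; 5 at an unadjusted p under 0.05), and none of 12 of type I and airway cells (0.17; 3 at an unadjusted p under 0.05). Of 12 genes of surfactant and type II cells Scd1 fell and none rose (0.08). Dll1, a Notch ligand, had the largest change of the first list, with 1059 and 745 at CR 24 h, against 81.1 and 85.3 on fed number 1 and 568 and 583 on number 2 (2.02, adjusted p = 0.101). Its log2 change was 3.42 against number 1 and 0.63 against number 2. Against fed number 1 12 of the 20 alveologenesis genes rose, beside 19.7% of all probe sets, and against number 2 none did.

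Of 20 immediate early genes 2 rose and 2 fell (10% each, beside 2.00% and 0.820% of all probe sets). Dusp1 and Klf10, a TGF-beta induced repressor (1.53-fold, adjusted p = 0.0222, with a second probe set at 0.62 on the log2 scale), rose. Atf3 and Egr2, factors that stress or growth signals induce, fell. Atf3 had 446 and 285 at CR 24 h, against 722, 974, 761 and 597 at fed 0 h, and Egr2 had 80.4 and 186 at CR 24 h, of which 1a is at the floor, against 336, 269, 219 and 331 at fed 0 h, at least 2.33-fold lower (adjusted p = 0.0394). Egr2 was lower than in the fed mice of 2, 4 and 12 h too (-1.49, adjusted p = 0.0131). Fos (0.24) and Egr1 (-0.34) did not pass. Klf10 and Dusp1 did not pass when CR 24 h 1a or CR 24 h 1b was left out. Atf3 did not pass when CR 24 h 1a, CR 24 h 1b, fed 0 h 1a or fed 0 h 1b was left out. Egr2 did not pass when CR 24 h 1a, fed 0 h 1a or fed 0 h 1b was left out. Against number 2 alone Egr2 (log2 change -1.14, adjusted p = 0.0822) and Atf3 (log2 change -0.92, adjusted p = 0.112) did not pass.

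For the other large rises, no further probe set of the same gene passed where the array had one. Xdh, xanthine dehydrogenase of purine breakdown, had 3376 and 3516 at CR 24 h, against 708 and 816 on fed number 1 and 1204 and 2058 on number 2 (3.15-fold, adjusted p = 0.00494). Inpp5d, a phosphatase of blood-cell signalling, had 1142 and 1040.1 at CR 24 h, against 103 and 83.5 on number 1 and 354 and 466 on number 2 (5.61-fold, adjusted p = 0.013), while its other probe set had a log2 change of -0.26 (adjusted p = 0.72). Every fed 0 h array had Tcf25 at the floor, and the gene rose at least 5.67-fold (adjusted p = 0.0472), with 685 and 303 at CR 24 h. Its other probe set had a log2 change of -0.13 (adjusted p = 0.853). Thrap3 and Rnps1 act in RNA splicing. Thrap3 rose 4.49-fold (adjusted p = 0.0228), and its other probe set had a log2 change of 0.48 (adjusted p = 0.155). Rnps1 rose 4.01-fold (adjusted p = 0.0253) and had 1802 and 1393 at CR 24 h, against 204, 441, 234 and 1161 at fed 0 h. Atp2a3, a calcium pump of the endoplasmic reticulum, had 642 and 671 at CR 24 h, against 235, 160.1, 194 and 264 at fed 0 h (3.13-fold, adjusted p = 0.0134), and its other probe sets had log2 changes of 0.43 (adjusted p = 0.378) and 1.51 (adjusted p = 0.153). Of the 12 largest rises 5 passed with any 1 array left out. Xdh, Inpp5d, Thrap3 and Atp2a3 did not pass when CR 24 h 1a or CR 24 h 1b was left out. Tcf25 did not pass when CR 24 h 1a, CR 24 h 1b, fed 0 h 1a or fed 0 h 1b was left out. Rnps1 did not pass when CR 24 h 1a, CR 24 h 1b or fed 0 h 1a was left out. Against number 2 alone Tcf25 (log2 change 2.50, adjusted p = 0.0726) and Rnps1 (log2 change 1.61, adjusted p = 0.0756) did not pass.

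**Figure D3:**
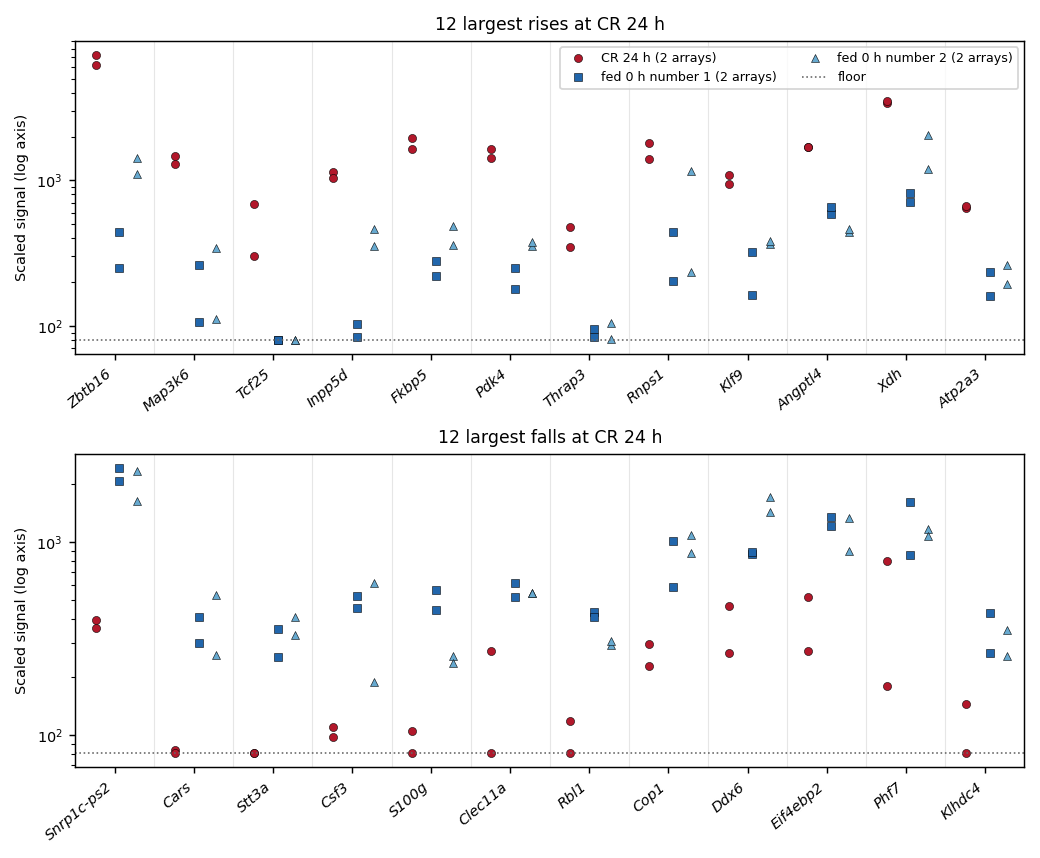
Scaled signal (log axis) on each array of the 12 named genes with the largest rise (top) and the 12 with the largest fall (bottom), CR 24 h as circles, fed 0 h number 1 as squares and number 2 as triangles; the dotted line is the floor of 80.4. Both CR arrays lie beyond all 4 fed arrays in every gene, which the naming rule required, and 6 of the falling genes have a CR array at the floor.

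The 12 largest falls included 6 genes with a CR array at the floor. Snrp1c-ps2, labelled as a pseudogene of the splicing protein U1-C, had 396 and 359 at CR 24 h, against 2425, 2080.2, 2351 and 1647 at fed 0 h, and was 5.57-fold lower (2.27 to 13.7, adjusted p = 0.0351). Cars, the cysteinyl-tRNA synthetase, was at 83.4 and 80.4 at CR 24 h, at or next to the floor, against 412, 299, 260.3 and 536 at fed 0 h. It fell at least 4.42-fold (adjusted p = 0.00157) and was the 1 of the 12 falls that passed with any 1 array left out. Csf3, the neutrophil growth factor G-CSF, had 109.6 and 97.5 at CR 24 h, against 524, 454, 612 and 188 at fed 0 h (3.94-fold lower, adjusted p = 0.0222), with fed 0 h 2b nearest to CR.

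Ddx6, an RNA helicase of mRNA decay bodies, had 265 and 466 at CR 24 h, against 867 and 889 on fed number 1 and 1439 and 1720.4 on number 2 (3.34-fold lower, adjusted p = 0.00515). A second Ddx6 probe set fell by 1.63 on the log2 scale (adjusted p = 0.00121), and another had a log2 change of 0.91 (adjusted p = 0.149), so the probe sets disagree. The fed mice of 4 h, at 368 on average for the first probe set, lay within the range of CR 24 h, and the log2 difference from fed 2, 4 and 12 h was -0.74 (adjusted p = 0.273). Rbl1, the retinoblastoma-like protein p107, fell at least 3.65-fold (adjusted p = 0.0144), S100g, the calcium-binding protein calbindin-D9k, at least 3.84-fold (adjusted p = 0.0165) and Clec11a, a secreted growth factor for blood progenitors, at least 3.77-fold (adjusted p = 0.0277). The N-glycosylation gene Stt3a fell at least 4.13-fold (adjusted p = 0.0161) and Klhdc4 at least 2.96-fold (adjusted p = 0.0424). Cop1, a ubiquitin ligase, was 3.36-fold lower (adjusted p = 0.0295), Eif4ebp2, a repressor of translation, 3.15-fold (adjusted p = 0.0343) and Phf7, a PHD finger protein, 3.03-fold (adjusted p = 0.0262). The other probe sets of Stt3a (-0.42), Cop1 (0.18), Eif4ebp2 (0.71), Phf7 (-0.20) and S100g (-1.35) did not pass. By the maker's suffixes 6 of the 12 falls and 2 of the 12 rises come from probe sets that share sequence with other transcripts or drop some design rules. Phf7 had 179.9 and 804 at CR 24 h, so its arrays differed widely, against 1612, 865, 1169 and 1082 at fed 0 h. Snrp1c-ps2, Eif4ebp2 and Klhdc4 did not pass when CR 24 h 1a, CR 24 h 1b, fed 0 h 1a or fed 0 h 1b was left out. Stt3a, S100g and Rbl1 did not pass when CR 24 h 1a or CR 24 h 1b was left out. Csf3 and Cop1 did not pass when CR 24 h 1a, CR 24 h 1b or fed 0 h 1a was left out. Clec11a did not pass when CR 24 h 1a or fed 0 h 1b was left out. Ddx6 did not pass when CR 24 h 1a was left out. Phf7 did not pass when CR 24 h 1a or fed 0 h 1a was left out. Against number 2 alone Snrp1c-ps2 (log2 change -2.38, adjusted p = 0.0593), Csf3 (log2 change -1.72, adjusted p = 0.0626), S100g (log2 change -1.43, adjusted p = 0.0662), Eif4ebp2 (log2 change -1.54, adjusted p = 0.0653) and Klhdc4 (log2 change -1.47, adjusted p = 0.0856) did not pass.

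Of 18 macrophage genes 1 fell and none rose (median log2 change -0.43). It was Mrc1, the mannose receptor, with 227 and 125 at CR 24 h, against 497, 384, 276 and 306 at fed 0 h (2.12-fold lower, adjusted p = 0.0351), and it did not pass against number 2 (-0.79, adjusted p = 0.126) and lost its call when CR 24 h 1b, fed 0 h 1a or fed 0 h 1b was left out. Against fed number 1 13 of the 18 fell and against number 2 none did, beside 19.2% and 1.40% of all probe sets. Tyrobp had 891 and 495 at CR 24 h, against 5386 and 4558 on number 1 and 588 and 831 on number 2, and fell against number 1 but not against number 2. Of 10 neutrophil genes Lcn2 rose and Csf3 fell (median -0.60). Of 22 chemokine and cytokine genes 1 rose, Il4ra, the receptor of interleukin 4 (1.74-fold, adjusted p = 0.0208). Il4ra and Lcn2 did not pass when CR 24 h 1a or CR 24 h 1b was left out. Csf3 did not pass when CR 24 h 1a, CR 24 h 1b or fed 0 h 1a was left out. None passed in limma of 14 B-cell (median -0.32; 2), 10 T and NK cell (-0.16; 0), 19 interferon (-0.21; 5), 11 MHC class II (-0.37; 1) and 7 erythroid genes (-0.14; 1), where the second value is the number at an unadjusted p under 0.05. Ms4a1, the B-cell antigen CD20, had 1014 and 978 at CR 24 h, against 3031 and 4602 on number 1 and 829 and 1408 on number 2.

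For housekeeping lists the counts differed widely between the fed numbers. Of 53 genes of oxidative phosphorylation none passed (median log2 change -0.44; 20 at an unadjusted p under 0.05), although 40 fell against fed number 1 (median -0.86) and none against number 2 (-0.02), beside 19.2% and 1.40% of all probe sets. Of 31 proteasome genes 1 fell (3.23%, beside 0.820% of all probe sets), Psmb1 (1.95-fold lower, adjusted p = 0.0139). A second Psmb1 probe set had a log2 change of -0.56 (adjusted p = 0.284). Relative to number 1 21 of the 31 fell and relative to number 2 1 did, beside 19.2% and 1.40%. Of 22 genes of ribosomes and translation 1 rose, the elongation factor Eef2 (1.72-fold, adjusted p = 0.0171), whose 2 CR arrays at 14530 and 14651 lay above the 6772 and 7498 on number 1 and 9558 and 10749 on number 2. None of 22 cell-cycle genes (median -0.23; 4 at an unadjusted p under 0.05), 15 heat shock genes (-0.02; 4), 12 smooth muscle genes (-0.02; 2) and 5 mesothelial and fat genes (0.14; 1) passed in limma. Of 27 genes of antioxidant defence and P450 enzymes 2 rose and 1 fell: Cyp4b1, a fatty acid hydroxylase of the lung (1.45-fold, adjusted p = 0.0236), and Cyp2b10 (1.98-fold, adjusted p = 0.0366) rose and Gsta3, a glutathione transferase, fell (1.58-fold lower, adjusted p = 0.0337). Of 18 cardiac muscle genes Tnni3, cardiac troponin I, fell (1.49-fold lower, adjusted p = 0.0293), with 1597 and 1541 at CR 24 h, against 2495, 2314, 2586 and 2001 at fed 0 h. The fed mice of 2, 4 and 12 h averaged 1526 ± 155, and the log2 difference from them was 0.05 (adjusted p = 0.913). Psmb1 and Eef2 did not pass when CR 24 h 1a or CR 24 h 1b was left out. Cyp4b1 and Gsta3 did not pass when CR 24 h 1a, CR 24 h 1b or fed 0 h 1b was left out. Cyp2b10 and Tnni3 did not pass when CR 24 h 1a, CR 24 h 1b, fed 0 h 1a or fed 0 h 1b was left out. Cyp2b10 did not pass against number 2 alone (log2 change 0.49, adjusted p = 0.0758). The 18 cardiac genes changed by -0.91 to 1.15 on the log2 scale, 8 of them upward and 10 downward. The summed signal of the 18 cardiac genes was 35090 to 36040 at CR 24 h, against 39710 to 40780 on fed number 1 and 36680 to 46330 on number 2, and its part in the results was not tested.

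**Figure D4:**
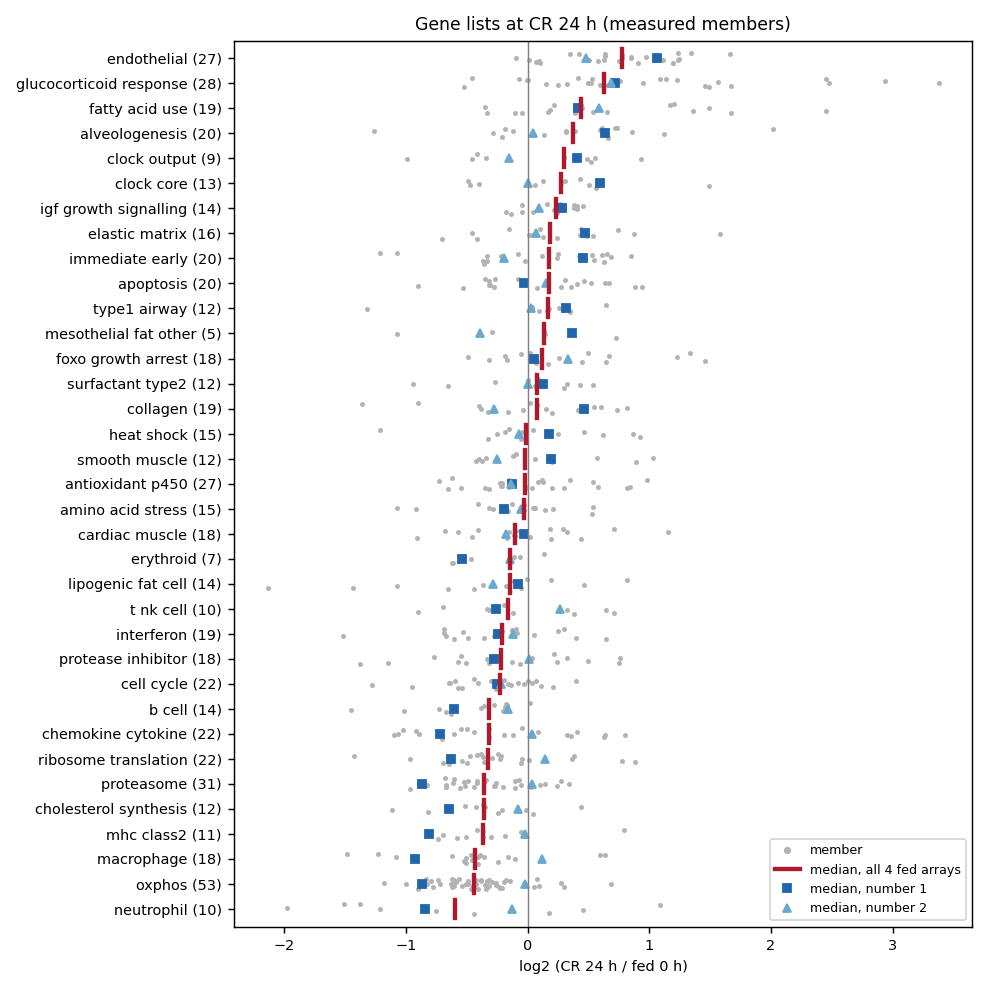
log2 change at CR 24 h relative to fed 0 h of the measured members of 35 gene lists (grey points; number of members in brackets). The bar is the list's median against all 4 fed arrays, the square that against fed number 1 and the triangle that against number 2; the square and triangle lie close together for glucocorticoid response (0.72 and 0.69) and far apart for oxidative phosphorylation (-0.86 and -0.02).

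Some changes passed against every control set, that is against all fed 0 h arrays, against each fed number and against the fed mice of 2, 4 and 12 h. These were 27 rises and 7 falls of 7440 probe sets tested, all among the 149 and 61. Against the fed mice of 2, 4 and 12 h alone 0.618% of all probe sets rose and 0.538% fell. The control sets overlap and the same 2 CR 24 h arrays entered each comparison, so passing all of them is no independent check. Among the rises were Pdk4, Map3k6, Acot1, Angptl4, Ddit4, Nfkbia, Errfi1, Cebpd and Bcl2l1, and both probe sets of Cdkn1a. Further ones, chosen for mention after their values were seen, were of other functions. Cdc42ep4, an effector of the small GTPase CDC42, averaged 3345 ± 181 at CR 24 h and 1135 ± 74.2 at fed 0 h (SD, n = 2 and 4), a log2 change of 1.56 (adjusted p = 8.2e-06). Slc10a6, a carrier of sulfated steroids, averaged 2498 ± 224 at CR 24 h and 1061 ± 95.2 at fed 0 h (1.24, adjusted p = 6.44e-05). Cdc42ep4 changed by 1.55 against number 1 and by 1.57 against number 2 on the log2 scale, and Slc10a6 by 1.30 and 1.18.

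Selenbp1, a selenium-binding protein, rose by 1.24 on the log2 scale (adjusted p = 0.000349), Tcn2, the vitamin B12 carrier transcobalamin 2, by 1.30 (adjusted p = 0.00121) and Abcg2, an efflux pump, by 1.06 (adjusted p = 0.00196). Sphk1, which makes sphingosine 1-phosphate, rose by 0.82 (adjusted p = 0.00402) and Igha, the constant region of immunoglobulin A, by 1.13 (adjusted p = 0.00121). Igha had 1440.3 and 1346 at CR 24 h, against 606, 677, 539 and 741 at fed 0 h, so its CR arrays lay clear of the fed ones. The 7 falls were both Scd1 probe sets, Serpinh1, Timp1, Rbl1, Phf7 and Tpd52, a protein of vesicle trafficking (log2 change -0.94, adjusted p = 0.0165). Cdc42ep4, Slc10a6, Selenbp1, Tcn2, Abcg2 and Igha passed with any 1 of the 6 arrays left out. Sphk1 did not pass when CR 24 h 1a was left out. Tpd52 did not pass when CR 24 h 1a or CR 24 h 1b was left out.

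Whether the first day differed from later CR was tested by CR 24 h against the 6 arrays of CR 48, 72 and 96 h. The highest deposited signal of an array was 74440 to 90497 at CR 24 h and CR 48 h. At CR 72 h and 96 h it was 32154 to 41374, so there day and signal range cannot be told apart. In limma 7 of 7440 probe sets passed, 3 higher (0.0403%) and 4 lower (0.0538%) at CR 24 h, while 667 (8.97%) had an unadjusted p under 0.05. Ddit4 was at 2419 and 2109.5 at CR 24 h, against 3384, 2725, 4911, 4231, 6229 and 5754 on the later arrays, and was 1.93-fold lower (log2 difference -0.95, adjusted p = 0.0259). All later arrays lay above both CR 24 h arrays. Fed 0 h averaged 977 ± 168 (SD, n = 4), below both. At CR 12 h, which was not part of this test, Ddit4 had 2413.5 and 2469, near CR 24 h.

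Ddx6 had 265 and 466 at CR 24 h, against 1329.8, 873, 1210.1, 1466, 989 and 777 later, 3.07-fold lower (adjusted p = 0.0399), and its second probe set was 2.53-fold lower (adjusted p = 0.0259). At fed 0 h the first probe set averaged 1229 ± 421, and at CR 12 h it had 377 and 504, near CR 24 h. The other Ddx6 probe set, with a log2 change of 0.91 against fed 0 h (adjusted p = 0.149), did not pass against later CR. Mrc1 had 227 and 125 at CR 24 h, against 179.8, 243, 736, 666, 517 and 604 later (-1.37, adjusted p = 0.0399), and the CR 48 h arrays overlapped with CR 24 h.

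Col3a1, the type III collagen chain, had 1469.5 and 1599 at CR 24 h, against 948, 992, 952, 1066, 648 and 746 later, 1.74-fold higher (adjusted p = 0.0259). At fed 0 h it was 1929 ± 134, and CR 24 h did not pass against that level (-0.33, adjusted p = 0.169). Gbp2, an interferon-induced GTPase, had 1520.1 and 1641 at CR 24 h, against 1032, 1028, 985, 1101, 780.1 and 849 later, 1.65-fold higher (adjusted p = 0.0259), and did not pass against fed 0 h (1683 ± 151, log2 change -0.09). In both genes every later array lay below both CR 24 h arrays. Col3a1 had 1547 and 1678 at CR 12 h, near CR 24 h. The other higher probe set has no gene symbol in the annotation used here. Neither Fkbp5 nor Zbtb16 passed: Fkbp5 averaged 1795 ± 219 at CR 24 h and 3753 ± 1090.4 later (-1.01, adjusted p = 0.0975), and Zbtb16 averaged 6752 ± 729 at CR 24 h and 7943 ± 1332 later (-0.22, adjusted p = 0.949). The number of calls fell to 0 without CR 48 h 1a or without CR 72 h 1a (limma; 676 and 560 at an unadjusted p under 0.05), was 3 without CR 72 h 1b and 4 without CR 96 h 1b, and reached 20 without CR 24 h 1b. Against CR 48 h alone 1 probe set passed.

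Set beside each other, 100 of the 149 rises at CR 24 h also passed at CR 48 h against fed 0 h, and 21 of the 61 falls did. At all of CR 48, 72 and 96 h 73 rises and 9 falls passed, and at none of them 27 rises and 34 falls. These comparisons share the fed 0 h arrays, so the counts are no independent check. The share of all probe sets that passed at each later time is not given here.

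**Figure D5:**
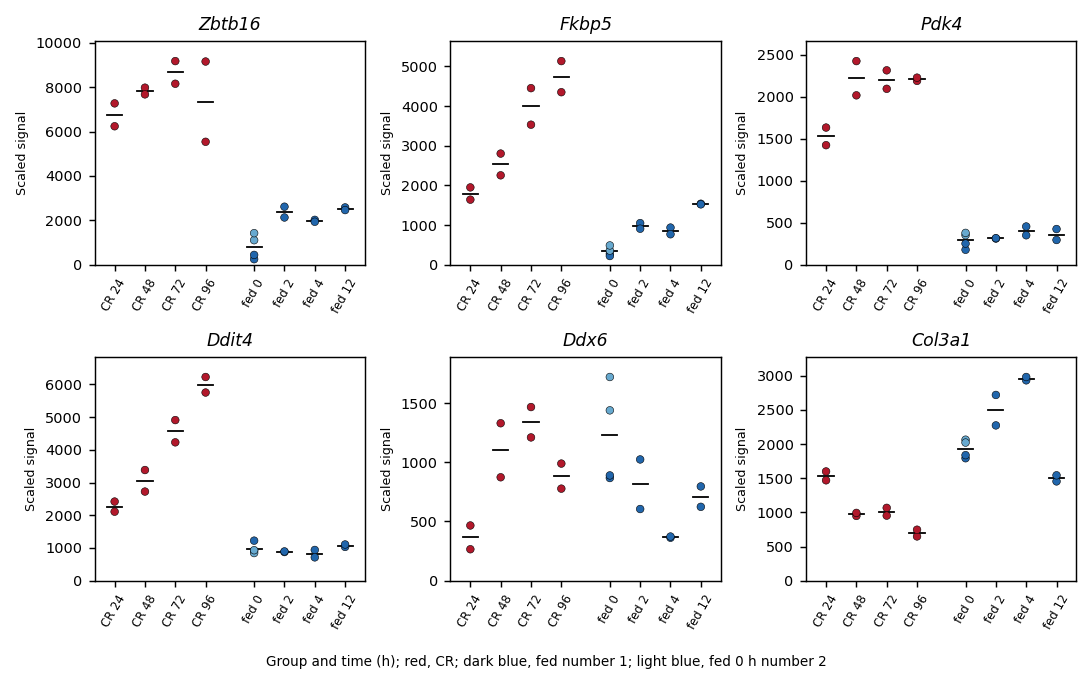
Scaled signal of 6 genes on each array by group and time, CR 24 to 96 h (red) left of fed 0 to 12 h (dark blue, with fed 0 h number 2 in light blue); black bars are group means. Pdk4 is higher on all CR arrays plotted than on any fed array, Ddit4 is at 2264 on average at CR 24 h and at 5991 at CR 96 h, and the means of Fkbp5 are also higher at fed 2, 4 and 12 h than at fed 0 h.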

How the data were processed

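The deposited values are linear signal intensities, 1 per probe set and array. Software, its version and the summary method are not given in the sources used here. As deposited, the authors' intensities had a trimmed mean of 800.4 to 800.5 on every array after leaving out the lowest and highest 2%, and medians of 300.2 to 342.3. Of 12488 probe sets 66 were controls and were left out.

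Signals were scaled to a common median (factors 0.920 to 1.05), floored at the 25th percentile of all signals (80.4) and taken to log2. A probe set was tested if at least 2 arrays reached their array's median, which left 7440, of which 6725 had 1 gene symbol, for 5706 genes. Gene names came from the platform annotation of August 2016. Of the 12422 probe sets 10833 had 1 symbol, 396 several and 1193 none, and 10817 matched by gene number to GRCm38.p6. limma 3.58.1 in R 4.3.3 (lmFit and eBayes with an intensity trend) was fitted to 24 arrays in 11 groups with 13 residual degrees of freedom. Tests were two-sided, with Benjamini-Hochberg adjusted p under 0.05 over all tested probe sets as the call. No array was dropped or imputed. The remaining sample, on another array type and with labels that conflict, was not used.

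Fold changes are ratios of floored values. Where at least 50% of a group's arrays were at the floor, the fold is a bound. Unless said otherwise, intervals are 95% confidence intervals from limma, and a value pair in brackets is the log2 change and its adjusted p. The maker's suffixes f, g, i, r and s mark probe sets that share sequence or were designed under relaxed rules.

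The comparison, its members and the gene lists were chosen with earlier results of these data known. The naming rule took, among called probe sets, the 12 rises and 12 falls of largest size (with 1 symbol, 1 per gene, and both CR arrays beyond the fed ones), up to 6 genes a list by smallest p, all clock genes, and the probe sets that differed from later CR with all 6 later arrays to 1 side. Not all genes of the list part of this rule are described. Other list members, the genes that passed against every control set, and Mrc1 in the comparison with later CR were named after their values were seen. Each list gene was read by its brightest probe set. In simulated data with known changes, the comparison with fed 0 h recovered 1 of 67 probe sets changed by 0.5 on the log2 scale, 28 of 67 changed by 1 and 62 of 66 changed by 2, with 6 false calls among 7240. The simulated arrays were independent, with no gap between the fed numbers and no link between the letters a and b. The count of false calls therefore does not give the error rate in the real data. The alternatives were quantile normalization, other floors, no filter, no trend, array weights, the letter or the signal range as a block, fewer arrays, each fed number alone, and other control sets.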

Additional observations from a re-analysis of the deposited data

Results flagged for a closer look

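Dusp1, 1 of the genes that rose, was at 4573 on fed 0 h array 2a, far from the other 3 fed 0 h arrays, with a gap to the nearest of 0.863 of the group's range. Chance gives such a gap in about 1 in 20 groups of 4 independent values. That rate does not carry over here, since the 2 fed numbers stood apart and Dusp1 was 1 of many named genes. CR 24 h differed from the mean of CR 48, 72 and 96 h in 5 named genes (limma, adjusted p under 0.05). Ddx6 was lower at CR 24 h by a log2 difference of -1.62, Mrc1 by -1.37 and Ddit4 by -0.95. Col3a1 was higher by 0.80 and Gbp2 by 0.72.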

How the results depend on the processing

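The comparison with fed 0 h gave 210 calls. Quantile normalization (222), no floor (213), a higher floor at the 40th percentile (218), no filter (196) and no trend (181) gave counts within 1.5 times that. The letters a and b did not pair the arrays (correlations of the a minus b differences of 0.0022, 0.076 and 0.014), and with the letter as a replicate block 173 passed here and 5 against later CR. Array weights, whose estimation stopped short of its convergence tolerance, left 83 calls, 75 higher and 8 lower against 149 and 61. Only the groups compared left 1 and averaged letters 2, both with few residual degrees of freedom. Fed number 1 alone gave 2895, as did the signal range as a block, which by construction sets CR 24 h against number 1. Number 2 alone gave 289. Fed 0, 2, 4 and 12 h together gave 101, and fed 2, 4 and 12 h, added after the data were seen, 86. Leaving out 1 array gave 37 (without CR 24 h 1a) to 744 (without fed 0 h 2a). The comparison with later CR gave 7 calls, 12 with quantile normalization, 35 with no filter, 39 with array weights, 1485 with the signal range as a block, 11 with only the groups compared, 1 against CR 48 h alone, and 0 to 20 with 1 array left out. The causes were not tested. Among 231 probe sets picked by the naming rule 2 changed direction with a call on at least 1 side: Hba-a1, at 0.14 on the log2 scale and not called, was at -0.38 against number 1 and with the signal range as a block, and Tnni3, called lower, was at 0.046 against fed 2, 4 and 12 h. The signal near the floor limits the falls, of which 7 are bounds.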
